A study of Mus musculus with 6 samples.

Results

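Of 61954 ATAC-seq peaks of distal forelimb buds, 388 lost accessibility and were left faint in embryos without HOX13. In ATAC-seq the transposase Tn5 cuts accessible DNA and tags it for sequencing, so that open chromatin collects reads. The 388 closed peaks were chosen by their measured values. Their mean rLog value, a regularized log2 read level scaled for library size, was at least 0.58 lower in Hox13-/- than in wild type, and below 4.5 in Hox13-/-. Both wild-type values lay above both Hox13-/- values, and the peak midpoint lay more than 1 kb from every annotated start site. Of all peaks, 40535 met the last condition and are called distal peaks here. The tissue was the distal forelimb bud at E11.5, taken from wild-type and Hox13-/- embryos on a mixed background C57Bl/6 x 129. The study describes the mutant alleles as nulls of Hoxa13 (Hoxa13Str) and Hoxd13 (Hoxd13lacZ), so the function of both genes was missing throughout the embryo. There were 2 libraries of 50000 cells per genotype. The 2 listed libraries of proximal forelimb buds were not used here.

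HOXA13 and HOXD13, together called HOX13, are homeodomain transcription factors made in the distal limb bud, the future hand and foot plate, and digits do not form without them. Gene switches of this stage lie mostly far from promoters, as enhancers of limited length that become accessible when transcription factors displace nucleosomes. HOX proteins of the posterior groups bind short AT-rich words that end in TAAA, and the letters before this ending differ between groups.

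The central 200 bp of 8 closed peaks are given here because they show windows with no HOX13-type word up to windows with 5, at peaks named in the results. The sequences are of RefSeq GRCm38.p6, the assembly also named mm10, on the plus strand and counted from 1. Capitals mark any of 12 words of 7 letters on either strand, so that a word on the minus strand reads as starting with TTTA. The 12 words have C or T, then A, C or T, then A or G, followed by TAAA. Each peak is called by the gene with the nearest protein-coding start site.
Rab28 peak, chr5:41441803-41442002: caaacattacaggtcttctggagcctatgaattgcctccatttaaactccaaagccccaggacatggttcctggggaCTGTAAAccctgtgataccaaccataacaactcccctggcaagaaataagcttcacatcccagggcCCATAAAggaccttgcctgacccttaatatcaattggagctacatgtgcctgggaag
Cybrd1 peak, chr2:71113820-71114019: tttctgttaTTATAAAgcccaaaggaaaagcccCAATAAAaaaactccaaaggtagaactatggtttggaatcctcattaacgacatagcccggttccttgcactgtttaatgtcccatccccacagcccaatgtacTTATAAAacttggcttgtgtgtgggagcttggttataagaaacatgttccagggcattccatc
Epha4 peak, chr1:76924974-76925173: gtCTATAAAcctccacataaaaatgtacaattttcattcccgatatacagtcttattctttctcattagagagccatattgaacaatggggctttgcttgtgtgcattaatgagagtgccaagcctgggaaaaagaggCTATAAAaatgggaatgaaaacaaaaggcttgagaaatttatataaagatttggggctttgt
Bmp2 peak, chr2:133593915-133594114: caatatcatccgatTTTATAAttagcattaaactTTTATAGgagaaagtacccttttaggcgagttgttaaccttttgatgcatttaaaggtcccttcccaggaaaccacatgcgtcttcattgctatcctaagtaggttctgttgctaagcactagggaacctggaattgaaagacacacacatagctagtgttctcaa
Dlx5 peak, chr6:6914289-6914488: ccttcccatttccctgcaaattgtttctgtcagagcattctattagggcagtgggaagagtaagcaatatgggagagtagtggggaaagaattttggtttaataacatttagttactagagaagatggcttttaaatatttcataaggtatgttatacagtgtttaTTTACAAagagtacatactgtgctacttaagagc
Pitx1 peak, chr13:55858982-55859181: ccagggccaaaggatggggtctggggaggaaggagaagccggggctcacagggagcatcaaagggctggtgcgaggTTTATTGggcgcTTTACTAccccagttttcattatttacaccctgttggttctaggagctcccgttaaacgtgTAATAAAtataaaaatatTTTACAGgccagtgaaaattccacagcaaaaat
C1ql3 peak, chr2:13130364-13130563: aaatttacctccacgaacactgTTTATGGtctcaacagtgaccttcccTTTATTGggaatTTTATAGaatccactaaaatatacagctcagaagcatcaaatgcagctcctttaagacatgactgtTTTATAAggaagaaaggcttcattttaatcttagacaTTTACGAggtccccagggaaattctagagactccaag
Sufu peak, chr19:46447983-46448182: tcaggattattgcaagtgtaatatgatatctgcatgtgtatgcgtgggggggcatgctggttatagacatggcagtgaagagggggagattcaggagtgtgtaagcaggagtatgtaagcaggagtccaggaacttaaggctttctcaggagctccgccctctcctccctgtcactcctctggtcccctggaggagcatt
The Rab28 peak had the largest fall of all closed peaks, and the Cybrd1 and Epha4 peaks were among the 8 with the largest fall. The C1ql3 and Pitx1 peaks held the most words of the 8 sequences, with 5 and 4 in the window. The Sufu peak had none in its window and none over its whole length of 325 bp.

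The values that chose the closed peaks are a description and carry no test. Wild-type replicate 1 ranged from 3.46 to 5.72 on the rLog scale with a median of 4.78, and replicate 2 from 3.32 to 5.83 with a median of 4.74. Hox13-/- replicate 1 ranged from 2.81 to 4.67 with a median of 4.05, and replicate 2 from 2.80 to 4.59 with a median of 4.03. The closed peaks therefore started near the middle of the distal peaks, since 61.2% of the distal peaks had a lower wild-type mean than the median closed peak. In Hox13-/- that share was 38.7%. The difference had a median of -0.70 and reached -1.32, and 38 peaks fell by 1 or more on the log2 scale. The SD between replicates had a median of 0.0993 in wild type and 0.0667 in Hox13-/- (n = 2 each), and the lowest wild-type value stood above the highest Hox13-/- value by a median of 0.567.

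**Figure D1:**
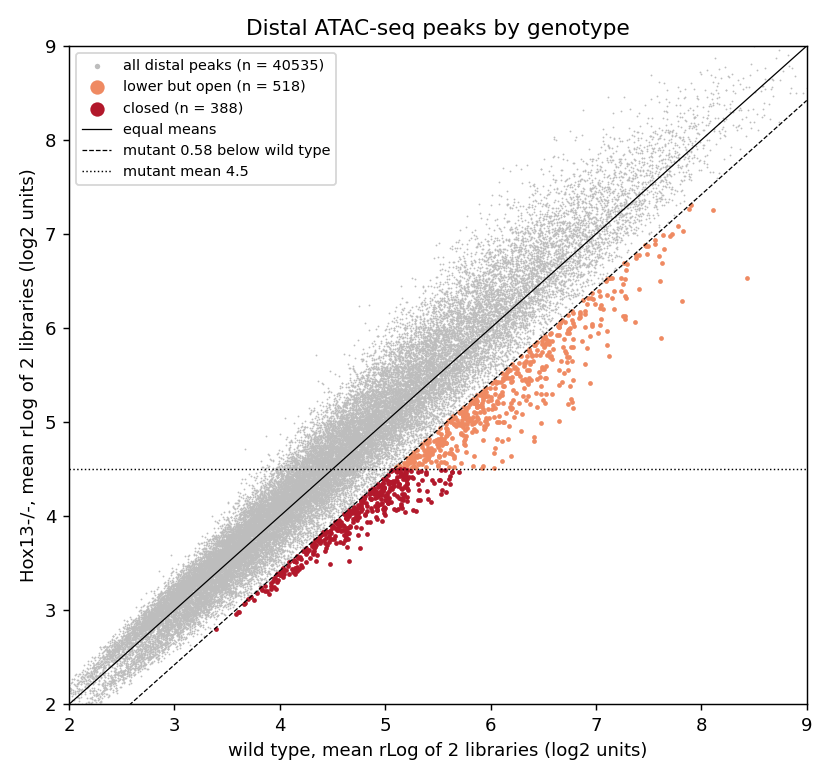
Mean rLog value in Hox13-/- (y axis) against wild type (x axis), both in log2 units and means of 2 libraries, for distal peaks. Grey points are all distal peaks, orange points the 518 that fell as far but kept a mutant mean of 4.5 or more, and red points the 388 closed peaks, which lie in the corner below the dashed and dotted lines; 269 distal peaks lie beyond the axes.

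At the edges of the rule, values inside and outside were close. By the size of the fall, the first peak outside, nearest to Atp5g3, had a difference of -0.5799. By the mutant mean, a peak nearest to Sptlc1 was inside at 4.498 and a peak nearest to Svopl outside at 4.507. By distance, the last peak inside lay 1038 bp from a start site and the first outside 993 bp. With all other conditions met, 5327 peaks failed only the size of the fall, 518 only the mutant mean and 22 only the distance. No peak failed only the separation of the libraries, and the smallest gap among closed peaks was 0.230, beside Fry.

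The authors called peaks in each library separately, from the same reads that gave the values of the rule, and merged them. The calls therefore describe the closed peaks and are no separate check of the word closed, since a peak that no mutant library had called could enter the table only through wild type. Of the 388 peaks, 0 had been called in Hox13-/- replicate 1 and 0 in replicate 2. In wild type 273 had been called in both libraries, 106 in replicate 1 alone and 9 in replicate 2 alone. Among all distal peaks the shares called were 57.2% and 70.0% in the Hox13-/- libraries, and 52.4% and 33.2% in the wild-type libraries. Of the 518 peaks that fell as far but stayed at 4.5 or above, called lower but open peaks here, 161 and 199 had been called in the Hox13-/- libraries. Closed thus stands for a faint level without a call in the Hox13-/- libraries, and not for an absence of reads. The level alone does not exclude a call. Of the 21009 distal peaks with a mutant mean below 4.5, 66.8% had been called in a Hox13-/- library, through which such peaks could enter the table. In such bulk samples, fewer cells with an open site and a less open site in every cell cannot be told apart.

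**Figure D2:**
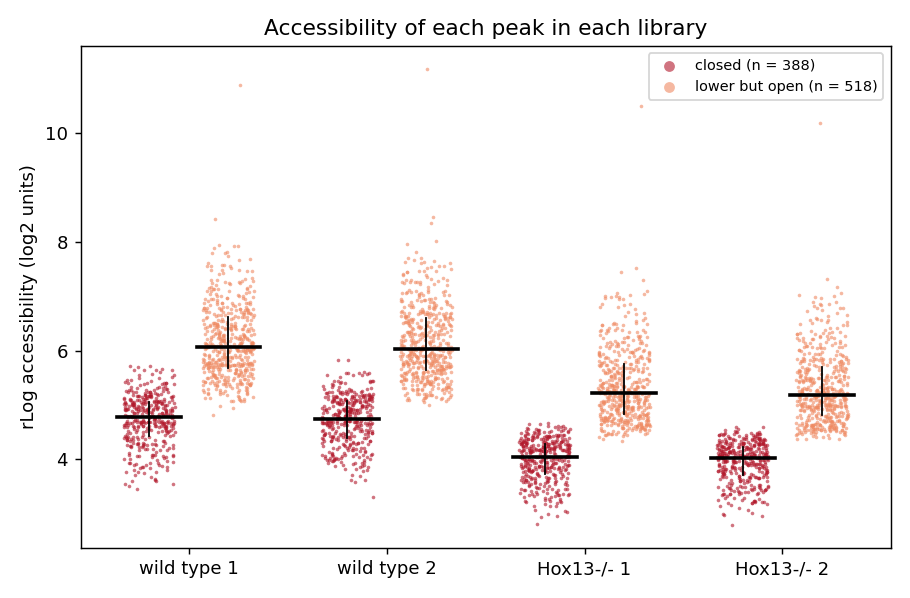
rLog accessibility (log2 units) in each library of the closed peaks (red) and the lower but open peaks (orange), 1 point per peak. Thick bars are medians and thin bars the interquartile range; the closed peaks' medians were 4.78 and 4.74 in wild type against 4.05 and 4.03 in Hox13-/-.

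Across all 61954 peaks, a limma fit of the rLog values called 5146 peaks lower in Hox13-/- and 7040 higher at an adjusted p under 0.05, which is 8.31% and 11.4% of the peaks. With each library centred on its median, which moved the differences by -0.0344, the counts were 6811 lower and 6017 higher. Leaving out 1 library gave 3112 lower peaks without Hox13-/- replicate 1 and 2865 without replicate 2, and 4650 higher peaks without wild-type replicate 1. All 388 closed peaks were among those called lower, but the rule used this contrast and nothing is read from that count. Likewise, both wild-type values were above both Hox13-/- values in 29.6% of all peaks and by rule in all closed peaks. The study describes the ATAC-seq replicates as biological, made from cells of both forelimb buds of a single embryo. Nothing in the sources used here says outright that the replicates of a genotype came from separate embryos or separate litters. The tests therefore measure the spread between these libraries.
Of the limb mesenchyme markers, 8 of 8 genes had a promoter peak, with mean rLog values of 4.87 and 4.89 in wild type against 4.81 and 4.79 in Hox13-/-. These markers were Prrx1, Twist1, Tbx5, Msx1, Lhx9, Hoxd13, Pdgfra and Col1a2. Hoxd13 itself carries a null allele in the mutant, so its promoter peaks are no measure of cell makeup here. Promoter peaks were found for 3 of 10 ectoderm markers, 2 of 8 muscle precursor markers, 4 of 8 endothelial markers, 1 of 9 blood markers and 2 of 5 neural crest and glia markers. Krt5, Krt14, Pax3, Myf5, Pecam1, Cdh5, Gata1, Ptprc and Sox10 had none. The mean of the promoter peaks of the 6 lists differed between Hox13-/- and wild type by -0.149 to 0.0714, with 3 of 24 limb mesenchyme promoter peaks called lower, 1 endothelial one called lower and 1 of the muscle precursors called higher, and their part in the loss of the closed peaks was not tested.

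The closed peaks with the largest falls lay beside genes of varied function. The peak chr5:41441687-41442117, 266.2 kb from the start of Rab28, which encodes a small GTPase, measured 5.71 and 5.44 in wild type against 4.30 and 4.22 in Hox13-/-, so that it fell by 1.32 on the log2 scale. A peak in an intron of 5730522E02Rik, chr11:25855073-25855526, had 5.49 and 5.56 in wild type against 4.38 and 4.10 in Hox13-/-. The peak chr2:6983951-6984329 lay in an intron of Celf2, which encodes an RNA-binding splicing regulator, with 5.28 and 5.59 against 4.12 and 4.19. In all 3, the gap between the closest libraries of the genotypes was wider than either replicate gap. The rule and the choice by largest fall favour such gaps, so nothing is read from them.
Only 4.0 kb upstream of Cybrd1, an iron reductase gene, the peak chr2:71113703-71114136 read 5.65 and 5.59 in wild type against 4.30 and 4.39 in Hox13-/-. The peak chr2:80384374-80384762 lay 63.1 kb from the start of Frzb, which encodes a secreted Wnt antagonist of forming cartilage, and read 5.51 and 5.56 against 4.36 and 4.19. An intronic peak of Maml2, chr9:13460111-13460402, had the closest mutant replicates of the 8, at 4.05 in both, with 5.19 and 5.39 in wild type. Maml2 encodes a coactivator of Notch signalling, although the nearest start site was that of Gm17571.
The peak chr1:76924857-76925289 reached the highest wild-type mean of all closed peaks, with 5.58 and 5.82, and kept 4.55 and 4.38 in Hox13-/-. It lay in an intron of Gm816 and 452.5 kb from Epha4, which encodes an ephrin receptor of the distal limb mesenchyme. In an intron of Ift88, a gene of cilium assembly, the peak chr14:57515238-57515640 read 5.40 and 5.42 in wild type against 4.26 and 4.09 in Hox13-/-. The differences of these 8 peaks ran from -1.23 to -1.32, and all 8 had been called in both wild-type libraries.

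The closed peaks lay in introns and between genes in about equal numbers, at shares near those of all distal peaks. The median distance to the nearest start site of any annotated transcript was 15030 bp, close to the 15010 bp of all distal peaks. To the nearest protein-coding start site it was 64050 bp, against 46380 bp for all distal peaks and 64270 bp for the lower but open peaks. Of the closed peaks 148 (38.1%) lay over 100 kb from every protein-coding start site, against 30.6% of distal peaks. Over 500 kb away lay 17 of the 388, against 2.97% of distal peaks. Introns held 189 (48.7%), intergenic sequence 191 (49.2%) and exons 8 (2.06%), against 50.3%, 45.3% and 4.36% of all distal peaks. Relative to the nearest protein-coding start, 172 lay upstream and 216 downstream, a split not given here for distal peaks. Each of the 19 autosomes carried between 7 and 35 closed peaks. Chromosome 19, with 7, held 1065 distal peaks, and chromosome 1, with 35, held 2916.

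**Figure D3:**
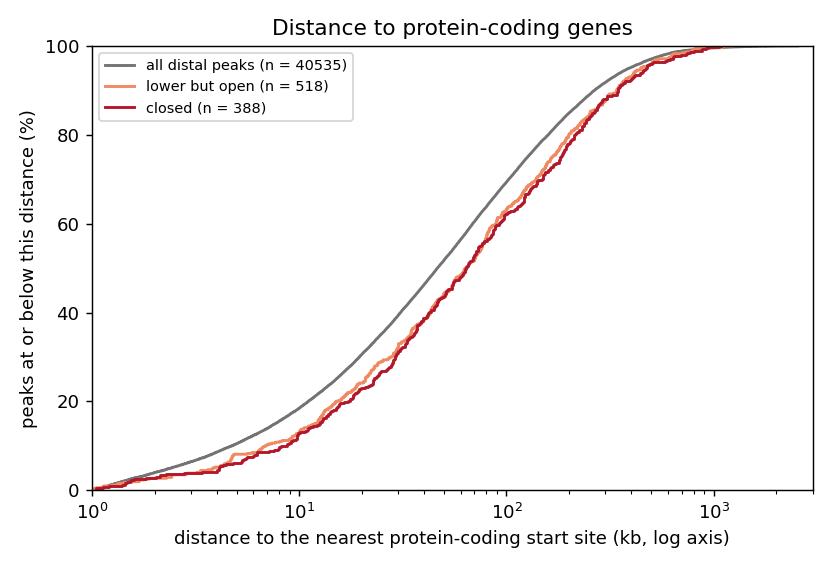
Cumulative share of peaks (y axis, %) by distance from the peak midpoint to the nearest protein-coding start site (x axis, kb, log scale) for closed, lower but open and all distal peaks. The curves of the closed and the lower but open peaks run together to the right of all distal peaks, with medians of 64050 and 64270 bp against 46380 bp.

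In sequence, the closed peaks were richer in A and T than distal peaks at large. Their median GC content was 43.15% against 48.75% for all distal peaks, 44.45% for the lower but open peaks and 49.76% for faint unchanged peaks, which are distal peaks with a mutant mean below 4.5 and a difference within 0.1 of 0. The median length was 272 bp against 218 bp for all distal peaks and 439 bp for the lower but open peaks. Repeats covered 9.52% of the closed peaks on average and 7.83% of the distal peaks.

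Words of the HOX13 type were found in 18% of closed peaks with the pair searched first. With 12 words chosen after shares in these peaks had been seen, it was 79.6%. These shares are given as descriptions with no test. The first pair searched was CAATAAA and TCGTAAA, both on either strand of the central 200 bp, and 70 closed peaks held 1 of them (18%), against 7.3% of all distal peaks, 19.3% of the lower but open peaks and 6.13% of the faint unchanged peaks. Nearly all of these matches were to CAATAAA, found in 17.0% of closed and 6.33% of distal peaks, while TCGTAAA was found in 6 closed peaks (1.55% against 1.06%).
A ranking of all words of 7 letters put other relatives first. Of 782 words held by at least 5% of the closed peaks, CTTGTAA had the highest ratio to distal peaks, with 75 closed peaks (19.3%) against 3.86%. TTGTAAA, which overlaps it by 6 letters, was at rank 4 with 85 peaks (21.9% against 5.39%), and CTATAAA was found in 76 (19.6% against 5.58%). Either TTGTAAA or CTATAAA was found in 153 closed peaks (39.4%) and in 10.6% of distal peaks. Other words near the top, CATATAA (8.51% against 1.85%) and TATGAAA (9.79% against 2.42%), do not have the ending TAAA.
With one more letter, CTTGTAAA occurred in 60 closed peaks (15.5% against 1.98%), TCTATAAA in 30 (7.73% against 1.42%) and CCAATAAA in 23 (5.93% against 1.68%). The ranking chose these words from the same peaks, so the ratios describe them only.

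The letters before TAAA were then compared over the 32 words of the forms NNATAAA and NNGTAAA. The highest ratios of closed to distal peaks were those of TTGTAAA (4.06), ATATAAA (3.96) and CTATAAA (3.51), followed by TTATAAA (3.14). At the other end, CGATAAA was found in no closed peak and in 0.469% of distal peaks, and GCATAAA in 2.06% and 2.59%. The set of 12 words, added after these shares had been seen, was found in the window of 309 closed peaks (79.6%), against 40.6% of all distal peaks, 77.2% of the lower but open and 35.0% of the faint unchanged peaks. The same 12 words read backwards, which have the same letters, were found in 55.4% of closed and 34.3% of distal peaks.
Among peaks with a window GC content of 38.5% to 46%, the interquartile range of the closed peaks, the 12 words were found in 82.0% of 205 closed peaks and 58.2% of 12741 distal peaks, and the reversed words in 57.6% and 48.3%. In the same GC range TTGTAAA was found in 21.5% and 8.0%, CTATAAA in 19.0% and 8.78%, and CAATAAA in 16.6% and 9.95%. Shares in the closed peaks were above those in distal peaks in this GC range, by smaller ratios than without it. This held for the reversed words too. Apart from the first pair, the words were chosen from shares in these same closed peaks, so these values describe them only. How far GC content accounts for the higher shares was not tested.
Over whole peaks, 332 closed peaks held at least 1 of the 12 words (85.6%), against 45.2% of all distal and 90.9% of the lower but open peaks. At least 2 were held by 235 (60.6%, against 19.1% and 71.2%) and at least 3 by 113 (29.1%, against 8.04% and 46.9%). None was held by 56 closed peaks. The lower but open peaks were longer, with a median of 439 bp against 272 bp. A closed peak of 334 bp nearest to Cox6c held 8, the most of any closed peak, and was named after its count was seen. The median difference was -0.669 in closed peaks without a word and -0.725 in closed peaks with 3 or more, whose median lengths were 242 and 299 bp. Matches were spread over the window, with a median distance of 45.5 bp from the midpoint against 46.5 bp in all distal peaks.
Read from the sequence side, 0.328% of the 24059 distal peaks without a word in the window were closed peaks. The share was 1.13% of those with 1 word, 2.74% with 2, 5.33% with 3 and 5.48% with 4 or more. The words were chosen from these same closed peaks and no GC range was applied, so nothing is read from this rise.

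Words of other factors were found at lower or similar shares in the closed peaks, again with no test. TGACAG, bound by MEIS and TGIF factors, was found in 6.7% against 13.2%, the homeodomain core TAATTA in 6.19% against 11.1%, GGGCGG of SP and KLF factors in 2.32% against 7.23%, AGGGGGC of the CTCF core in 2.06% against 5.3% and CCGGAA of ETS factors in 1.03% against 3.37%. In the range of like GC content TGACAG was found in 6.34% against 11.9% and TAATTA in 4.88% against 16.3%, while GGGCGG was found in 1.46% against 1.41% and AGGGGGC in 1.95% against 2.28%. The SOX word ACAAAG (16.5% against 16%), the RUNX word TGTGGT (14.2% against 15.4%) and the AP-1 word TGANTCA (6.96% against 5.82%) differed little. The FOX word GTAAACA, which shares its start with the ending of words such as TTGTAAA, was found in 5.15% against 4.19%. These are matches of letters and not measured binding.

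**Figure D4:**
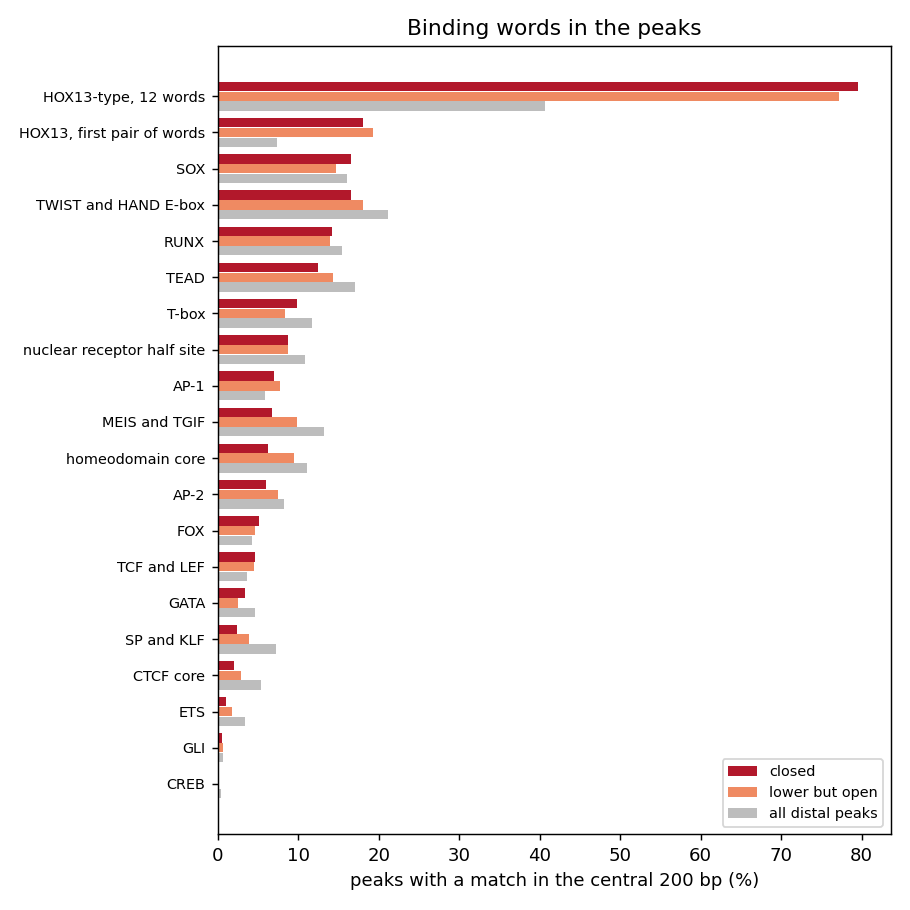
Share of peaks (x axis, %) with at least 1 match of each set of words in the central 200 bp, on either strand, for closed peaks (red), lower but open peaks (orange) and all distal peaks (grey). The 12 HOX13-type words, a set chosen after shares in the closed peaks had been seen, were found in 79.6%, 77.2% and 40.6%. The TWIST and HAND E-box, the next of the other factors, was found in 16.5%, 18% and 21.2%.

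The 4 closed peaks with the most matches to CAATAAA or TCGTAAA over the whole peak each held 2. The peak chr5:38002648-38002990, 35.9 kb upstream of Stx18, measured 5.29 and 5.23 in wild type against 4.34 and 4.46 in Hox13-/-. The peak chr11:87879800-87880088 near Epx read 4.95 and 4.91 against 4.21 and 4.03. An intronic peak of Rsu1, chr2:13130272-13130655, nearest to C1ql3 and printed above, had 5.13 and 4.99 against 4.32 and 4.30. The peak chr11:114342965-114343223 near Sdk2 had 4.61 and 4.35 against 3.65 and 3.85. Their differences ran from -0.727 to -0.859. Of the 8 peaks with the largest fall 1 held either word. Those 8 were chosen by their fall, so nothing is read from their larger differences.

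Genes of limb patterning pathways lay nearest to 32 of the 388 closed peaks (8.25%), against 5.14% of distal peaks, over 11 lists with 201 genes in all. The BMP list had 6 peaks at 4 genes (1.55% against 0.592%), the Wnt list 7 at 7 genes (1.8% against 0.974%), the Eph and ephrin list 4 at 2 genes (1.03% against 0.501%) and the hedgehog list 3 (0.773% against 0.385%). The list of distal limb transcription factors had 5 peaks (1.29% against 0.723%), that of cartilage and joint genes 4 (1.03% against 0.664%), that of proximal limb genes 2 (0.515% against 0.343%) and the FGF list 1 (0.258% against 0.326%). The 5' Hox, Notch and retinoic acid lists had none by this count of nearest genes, with 35, 104 and 117 distal peaks nearest to their genes. An enhancer of a listed gene that lies nearer to another gene is not counted. The paper reports lower accessibility without HOX13 at several HoxD enhancers. Closed peaks on chromosome 2 lay beside peaks nearest to Lnpk and Atp5g3, which are on no list. Whether these belong to such enhancers was not tested. Such small counts describe these peaks, and the nearest gene is not shown to be the one an enhancer acts on.

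Among secreted signals, a closed peak lay 41.9 kb downstream of the start of Bmp2, a ligand of bone and digit development. This peak, chr2:133593825-133594203, measured 5.21 and 5.45 in wild type against 4.24 and 4.11 in Hox13-/-, and fell by 1.15 on the log2 scale, the most beside any listed BMP gene. Bmp7, Wnt5a and Fgf9, which encode further ligands, had 1 closed peak each. The Fgf9 peak, chr14:58306954-58307362, read 5.20 and 4.91 in wild type against 4.36 and 4.37 in Hox13-/-, and had been called in wild-type replicate 1 alone.
Antagonists of the Wnt ligands on the list were represented by Wif1, Dkk3 and Dkk2, beside Frzb, which was not on the list. A peak in an intron of Wif1, chr10:121079071-121079447, had 5.25 and 5.16 in wild type against 4.18 and 4.14 in Hox13-/-. An intronic peak of Dkk3, chr7:112144848-112145192, had 5.07 and 5.25 against 4.26 and 4.22. In both, the gap between the closest libraries of the genotypes was wider than either replicate gap, which the rule and the choice by fall favour. The Wif1 peak had been called in wild-type replicate 1 alone. Hhip, which encodes an inhibitor of hedgehog ligands, had 1 closed peak 193.0 kb upstream.

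Some receptor genes had more than 1 closed peak. Bmpr1b, a BMP receptor gene needed for digit cartilage, had 3. The strongest, chr3:141791444-141791765 in an intron of Unc5c, had 5.16 and 5.13 in wild type against 4.15 and 4.08 in Hox13-/-, and a second lay beside it with midpoints 0.299 kb apart. Epha4 also had 3, of which the second by fall, chr1:76737116-76737357, read 5.06 and 5.00 against 4.24 and 4.14 and held none of the 12 words. Epha3 had 1, as had Ror2, which encodes a receptor for Wnt5a. Robo1, a guidance receptor gene on no list and named after the counts were seen, had 4, more than any other gene, with differences from -0.590 to -1.19. In all, 350 genes were nearest to a closed peak, 34 of them to 2 or more and 3 of them to 3 or more.

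Inside the cell, the hedgehog pathway was represented by Sufu, an inhibitor of GLI factors, and by Gli3. The peak in an intron of Sufu, chr19:46447920-46448244, read 5.18 and 5.17 in wild type against 4.14 and 4.20 in Hox13-/-. An intronic peak of Gli3, chr13:15654313-15654705, had 5.11 and 4.81 against 4.17 and 4.27 and had been called in wild-type replicate 1 alone. Smad7, an inhibitor of BMP and TGF-beta signalling, Ctnnb1, which encodes beta-catenin, and Tcf7l2, its DNA-binding partner, had 1 closed peak each.

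Among transcription factor genes, Dlx5, which acts in the limb ectoderm and skeleton, had 2 closed peaks about 32 kb upstream, with midpoints 0.262 kb apart. The stronger, chr6:6914248-6914529, had 4.65 and 4.57 in wild type against 3.85 and 3.76 in Hox13-/-. A peak 22.9 kb upstream of Pitx1, a hindlimb identity gene, had 4.26 and 4.37 against 3.55 and 3.69 and held 5 of the 12 words (chr13:55858960-55859203). Tbx5 and Hand2 had 1 closed peak each.
Sox9 and Sox6, regulators of cartilage formation, had 2 each. The stronger at Sox6, chr7:115523359-115523629 in an intron, read 4.93 and 5.02 against 3.99 and 4.17, and the stronger at Sox9, chr11:112523608-112523807, read 4.06 and 3.89 against 3.31 and 3.29 at 258.5 kb upstream. This Sox9 peak had been called in wild-type replicate 1 alone. Of the proximal limb genes, Irx5 had the peak chr8:92450034-92450231 with 4.17 and 4.22 against 3.63 and 3.51. This peak differed by -0.628.

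Promoters of the nearest genes were called lower at a share near that of promoters at large. Of the 350 nearest genes 276 had a promoter peak, defined by a midpoint within 1 kb of a protein-coding start, and limma called 34 of their 476 promoter peaks lower (7.14%) and 9 higher (1.89%). Over all 17938 promoter peaks the shares were 8.57% and 0.987%, and the median difference was -0.0932 against -0.113. The count of 34 rose to 53 with median centring, where 12.8% of all promoter peaks were called lower, and fell to 22 without wild-type replicate 1 (4.62%, against 5.82% of all promoter peaks), 15 without Hox13-/- replicate 1 (3.15% against 3.67%) and 17 without replicate 2 (3.57% against 3.91%). Promoter peaks of all 201 listed genes, with or without a closed peak, behaved alike, with 26 of 345 lower (7.54%) and 8 higher (2.32%). The Wnt list had 8 of 52 lower and 1 higher, the BMP list 5 of 41 lower and 0 higher, and the Eph and ephrin list 1 of 32 in each direction. The 5' Hox list had 3 of 20 in each direction, the distal transcription factor list 3 of 39 lower, the FGF list 3 of 37 lower, the retinoic acid list 2 of 28 lower and 1 higher, and the cartilage and joint list 1 of 32 lower and 2 higher. The proximal limb, hedgehog and Notch lists had 0 called in 14, 27 and 23 promoter peaks.

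Single promoters moved with or against their closed peaks. The largest changes were at Coil, which encodes the marker protein of Cajal bodies. Its promoter peak chr11:88970330-88970698 had 4.88 and 5.12 in wild type against 3.96 and 3.86 in Hox13-/-, a difference of -1.09 ± 0.13 (SE; limma adjusted p = 2.11e-14), and a second promoter peak differed by -1.02 (limma adjusted p = 2.06e-13). Coil had 3 promoter peaks in all, and those 2 were named after their values were seen. Of 2 promoter peaks of Ror2 1 was lower, with 7.24 and 7.16 against 6.73 and 6.83 (-0.42 ± 0.126 SE; limma adjusted p = 0.00782), as was 1 of 4 of Epha4, with 6.07 and 6.15 against 5.83 and 5.67 (-0.36 ± 0.129 SE; limma adjusted p = 0.0306). The Ror2 call was lost without wild-type replicate 1 (limma adjusted p = 0.0719) or Hox13-/- replicate 1 (0.109), and the Epha4 call without wild-type replicate 1 (0.064), wild-type replicate 2 (0.16) or Hox13-/- replicate 2 (0.255).
Some promoter peaks were higher in Hox13-/- at genes whose closed peaks were lower. At Epha3 1 of 2 promoter peaks was called, which read 5.14 and 5.12 in wild type against 5.77 and 5.60 in Hox13-/- (0.55 ± 0.131 SE; limma adjusted p = 0.000358). At Frzb, whose closed peak fell by 1.26 on the log2 scale, 1 of 4 promoter peaks was called, chr2:80448156-80448768, which read 6.07 and 6.06 in wild type against 6.69 and 6.66 in Hox13-/- (0.61 ± 0.128 SE; limma adjusted p = 5.42e-05), and it was named after its value was seen. The other Frzb promoter peaks differed by 0.03, 0.05 and 0.17. Both calls held under every scaling and without each library. Of 7 promoter peaks of Sox6 2 were called higher, with differences of 0.38 (limma adjusted p = 0.0228) and 0.34 (limma adjusted p = 0.0484). The first was lost without wild-type replicate 1 (0.235) or Hox13-/- replicate 2 (0.32), and the second with median centring (0.0797), with quantile normalization (0.064) and without any library in turn, where it ran from 0.057 to 0.312.

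Peaks beside the closed peaks were called lower at 29.5%, a share given as a description with no test. Within 10 kb, 224 closed peaks had another peak that was not itself closed by the rule, and the nearest ones made up 220 peaks. These did not enter the rule but were measured in the same libraries. Of the 220, 192 were distal peaks. limma called 65 of the 220 lower (29.5%), against 8.31% of all peaks and 7.42% of distal peaks that were not closed. It called 18 of the 220 higher (8.18%), against 11.4% and 16.3%. The median difference was -0.18, against 0.0715 over distal peaks that were not closed. With midpoints at most 0.5 kb away, 33 of 57 peaks were lower and 0 higher, and from 0.5 to 10 kb 32 of 163 were lower (19.6%) and 18 higher (11%). From 2 to 10 kb, 20 of 125 were lower (16%) and 14 higher (11.2%). Closed peaks had a median length of 272 bp, so many neighbours within 0.5 kb nearly adjoin them. Whether these are parts of the same open site was not tested. Without Hox13-/- replicate 2, limma called 39 of the 220 lower (17.7%) against 4.62% of all peaks.
The neighbour with the largest fall, chr2:137880104-137881002 near Btbd3, had 7.26 and 7.47 in wild type against 6.02 and 6.11 in Hox13-/-, with its midpoint 657 bp from a faint closed peak that read 4.62 and 4.68 against 3.95 and 4.11. The neighbour near Irx1, chr13:71452738-71453449, had 5.84 and 5.83 against 4.51 and 4.55. Both neighbours were named after their values were seen. Both failed the rule only by their mutant mean, as did 12 of the 220 neighbours in all.

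**Figure D5:**
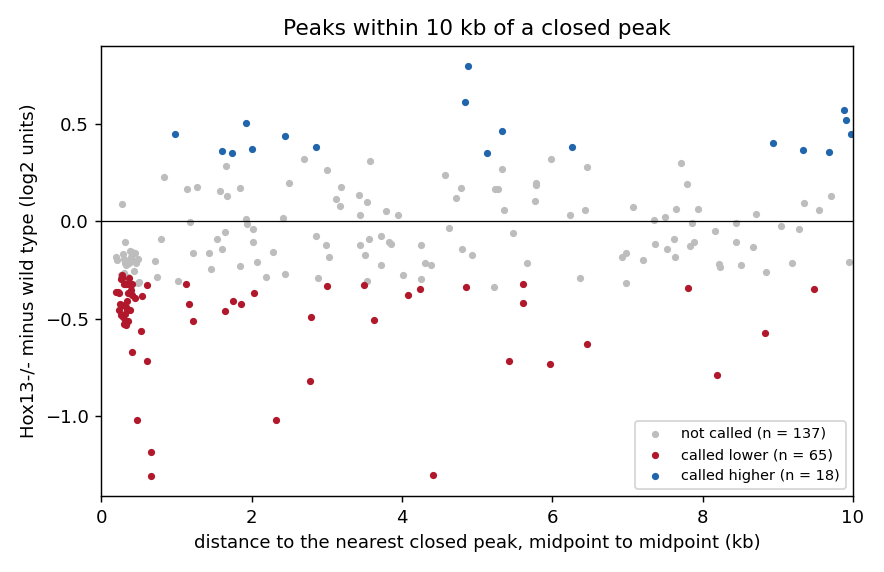
Difference between Hox13-/- and wild type (y axis, log2 units, mean of 2 libraries each) of the 220 peaks nearest to a closed peak, by distance between midpoints (x axis, kb). Red points are the 65 called lower by limma, blue points the 18 called higher and grey points those not called; the lower ones crowd at the left edge, where 33 of 57 peaks within 0.5 kb were called lower and 0 higher.

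Most closed peaks had no other closed peak within 50 kb. This near to another lay 33 of the 388 (8.51%), and 47 of 518 lower but open peaks (9.07%) to another of their kind. How many other distal peaks lay near a closed peak was not counted, so clustering or its absence is not read from this. Chained over gaps of at most 50 kb, the closed peaks formed 16 groups, of which 15 were pairs. A lower but open peak lay within 50 kb of 40 closed peaks (10.3%), against 5.19% of the other distal peaks. For peaks called lower by limma but not closed, the count was 148 (38.1%), against 28.7%. A peak called higher by limma lay within 50 kb of 123 (31.7%), against 41.8%.
The only group of 3 was on chromosome 11 between 88967855 and 88976231, beside the start sites of Coil and Elobl. Its strongest peak measured 4.78 and 4.75 in wild type against 3.69 and 3.63 in Hox13-/-. Of 5 other peaks between its members 4 were called lower, among them 2 of the 3 Coil promoter peaks. The other Coil promoter peak, chr11:88973788-88974205, lay in the same span and was not called (-0.21; limma adjusted p = 0.258). The next group by fall was the pair in the intron of Unc5c near Bmpr1b, and the third a pair in an intron of Zfp521, a zinc finger gene, whose stronger peak had 4.77 and 5.16 in wild type against 4.03 and 3.87 in Hox13-/-.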

How the data were processed

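Distal forelimb buds were profiled by ATAC-seq with paired-end reads of 50 bp. Alignment to mm10 was by Bowtie2 2.3.1, peak calling per library by MACS2 2.1.1.20160309, and merging and quantification by HOMER 4.9.1. The authors deposited rLog values of DESeq2 per library (log2 units, corrected for library size and drawn towards the mean of each peak), in which differences of weak peaks are understated. Handling of duplicates, blacklisted regions and the Tn5 offset is not given in the sources used here. The values used here hold no read numbers per peak, so the precision that depth gives a single peak is unknown, and read totals of the libraries, which the study states, are not repeated. The authors' columns of log2 fold change, p-value and adjusted p-value were not used.

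The closed peaks and the gene lists were chosen with earlier results of these data known. Start sites came from GENCODE M21, and sequence from GRCm38.p6, into which all peaks fitted. Genotypes were compared with limma 3.58.1 in R 4.3.3 on the rLog values of 61954 peaks, with a variance trend, two-sided tests and Benjamini-Hochberg adjustment over all peaks. The fit was tested on simulated data. Words were counted with Python 3.11.15 in the 200 bp about the midpoint, on both strands. Peaks were named by rule: the 8 largest falls, the 4 with the most matches to the first pair of words, the 2 largest falls per gene list, the 3 largest groups, the peaks at each threshold, and called promoter peaks of listed genes. One peak named by this rule is not reported here. Alternatives were other scalings, thresholds, distances and word lengths, a replicate block, no trend, a filter on low peaks and leaving out each library. The replicate numbers are shared only as numbers, with a correlation of -0.0106 between deviations of like-numbered libraries.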

Additional observations from a re-analysis of the deposited data

How the results depend on the processing

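The number of closed peaks was 388, fell to 38 with a difference of -1 or lower and to 173 with a mutant mean below 4, and was 386 to 473 with 1 library left out; under the other thresholds and scalings it stayed within 1.5 times. The limma counts of 5146 lower and 7040 higher were 4967 and 7013 with the replicate block, and 2865 to 3552 and 4650 to 5008 with 1 library left out. The block, which pairs libraries by number only, left every count within 1.5 times (63 neighbours and 33 promoter peaks lower). The share with either word of the first pair was 18%, but 6.96% with words of 8 letters, 41.8% with words of 6 letters and 79.6% with the 12 words, a set chosen after seeing the data. The median distance to a start site was 15030 bp and 64050 bp with protein-coding start sites only. The share of closed peaks within 50 kb of another was 8.51%, 5.93% within 20 kb and 0% among peaks with a difference of -1 or lower. Of the neighbouring peaks 65 were called lower, and 39 to 49 with 1 library left out. Of the promoter peaks 34 were called lower, 53 with median centring, 53 within 2 kb of a start site, and 15 to 24 with 1 library left out. Where a value moved, the cause was not tested. The differences of the 28 closed peaks named by rule ran from -0.539 to -1.45 under 2 other scalings and without each library, and a change of sign without a library was not possible by the rule.

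Both genotypes had 2 libraries, so that limma's p-values rest on a spread shared between peaks, and no permutation of the labels can fall below 0.05. Shrinkage of the rLog values limits the falls that weak peaks can show. Word matches are letters and not binding.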
